A study of Mus musculus with 9 samples.

Results

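Levels of the H/ACA small nucleolar RNAs and the small Cajal body RNAs were compared between pull-downs from mouse liver. These were made with an antibody to the RNA-binding protein HuR or with a control IgG, and were also compared with the lysate (Input). The genes were taken by name, as every gene in the deposited table whose symbol starts with Snora or Scarna. There were 48 such genes (39 Snora and 9 Scarna) among 33732 gene names. The study was an RNA immunoprecipitation followed by sequencing (RIP-seq), done on whole healthy liver of C57BL/6 WT mice at an age of 8 weeks, with 3 libraries of HuR RIP, 3 of IgG RIP and 3 of Input. All groups share strain, tissue and age, and none carries an allele or a treatment. The pull-downs were native, with no crosslinking step named in the labels' protocols, and each used the lysate of a single liver. The Input libraries are present only as their mean, so every comparison with Input is a value without a test. The series gives as its purpose the search for RNAs that HuR targets in this tissue.

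H/ACA small nucleolar RNAs are short nuclear RNAs that fold into a pair of hairpins, joined by a single-stranded H box and closed by a tail with the bases ACA. With the proteins dyskerin (Dkc1), Gar1, Nop10 and Nhp2 they form particles that turn chosen uridines of ribosomal RNA into pseudouridine, and a few of them take part in cutting the ribosomal precursor. Small Cajal body RNAs do similar work on the spliceosomal small nuclear RNAs, inside the nuclear structures called Cajal bodies. Some of these are of the H/ACA type, some are of the C/D type that guides ribose methylation, and some carry both parts in a single RNA. Most members of the family in vertebrates are cut out of introns of host genes. HuR, the product of Elavl1, is known for binding U-rich and AU-rich stretches of messenger RNA.

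The H box and ACA tail, or the C and D boxes of the C/D type, are shown in the sequences of 6 genes. They are Snora57, the most abundant of the 48, Snora64 and Snora73a, with the lowest fold changes of HuR against IgG among the Snora genes, and Scarna13 and Scarna9, with the highest and the lowest such value among the Scarna genes, and Scarna6, an RNA of mixed type. They are given 5′ to 3′ as DNA letters on the strand of the gene, from GENCODE M21 on GRCm38 (mm10). Capitals mark the tail box and, where present, the match to the H box pattern (ANANNA) nearest the middle in Snora57, Snora64, Snora73a and Scarna13 (which has none in the middle window), and the C box (TGATGA) and D box (CTGA) in Scarna6 and Scarna9. Snora57 lies at chr19:8888538-8888685 (minus strand), Snora64 at chr17:24720772-24720905 (plus strand), Snora73a at chr4:132352775-132352979 (minus strand), Scarna6 at chr1:87784556-87784820 (plus strand), Scarna13 at chr12:105031075-105031349 (minus strand) and Scarna9 at chr9:15326264-15326333 (minus strand).
Snora57: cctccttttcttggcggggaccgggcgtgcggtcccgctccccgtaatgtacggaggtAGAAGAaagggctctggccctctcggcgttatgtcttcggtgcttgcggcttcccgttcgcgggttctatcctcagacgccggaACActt
Snora64: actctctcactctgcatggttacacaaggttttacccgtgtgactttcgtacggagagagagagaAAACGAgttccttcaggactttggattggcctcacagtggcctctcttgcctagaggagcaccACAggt
Snora73a: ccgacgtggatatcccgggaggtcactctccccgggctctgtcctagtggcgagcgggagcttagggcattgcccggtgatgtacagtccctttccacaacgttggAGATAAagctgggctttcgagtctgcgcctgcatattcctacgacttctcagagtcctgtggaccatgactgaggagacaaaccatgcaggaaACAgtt
Scarna6: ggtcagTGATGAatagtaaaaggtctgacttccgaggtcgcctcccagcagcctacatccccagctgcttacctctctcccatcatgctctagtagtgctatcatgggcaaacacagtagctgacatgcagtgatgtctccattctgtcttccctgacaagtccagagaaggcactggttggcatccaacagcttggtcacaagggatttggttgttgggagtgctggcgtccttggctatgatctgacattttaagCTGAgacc
Scarna13: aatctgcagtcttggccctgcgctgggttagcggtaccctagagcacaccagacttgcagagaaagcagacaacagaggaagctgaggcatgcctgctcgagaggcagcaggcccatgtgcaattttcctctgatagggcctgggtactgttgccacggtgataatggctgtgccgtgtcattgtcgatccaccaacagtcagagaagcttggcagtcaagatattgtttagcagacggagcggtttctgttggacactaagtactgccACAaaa
Scarna9: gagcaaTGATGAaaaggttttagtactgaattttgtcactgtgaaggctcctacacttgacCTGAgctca

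All 48 genes lay at the same coordinates in GENCODE M21. Their lengths ran from 70 to 414 bases with a median of 133. Of the 48, 43 ended in the tail box of the family, 41 with ACA and 2 with ATA (Snora44 and Snora81), each followed by 2 to 4 bases. Such an ending was found in 8.94% of 131793 listed exons of the same range of lengths. An ANANNA match between 30% and 70% of the length was found in 40 of these 43 and in 55.7% of those exons. The other 5, Scarna2, Scarna6, Scarna9, Scarna10 and Scarna17, had no ACA tail and held a D box in the last 20 bases, and 4 of them (not Scarna2) held a C box in the first 20. CTGA in the last 20 bases was found in 10.5% of those exons and TGATGA in the first 20 in 1.08%. So the names take in 5 RNAs whose ends are of the C/D type. Scarna6 and Scarna10 are known as RNAs of mixed type directed at U5 small nuclear RNA, and Scarna2 and Scarna9 as C/D guides of U2 small nuclear RNA.

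Most of the 48 lie inside other genes. A host on the same strand was annotated for 43 of them, and for 34 of them it was protein-coding. Where several genes qualified, a protein-coding gene was taken first. So Snora74a was assigned to Gm28285, though it also overlaps a listed line of Snhg4. Of the 43, 22 lay in an intron only and 21 overlapped an exon of some transcript of the host. In 11 cases the host was a gene of a ribosomal protein. Snhg12, a non-coding host gene, holds Snora16a, Snora44 and Snora61 on chromosome 4. Rcc1, which encodes a nuclear exchange factor and shares its locus with the non-coding gene Snhg3, holds Snora73a and Snora73b on the same chromosome. The 5 with no host found on their strand were Snora57, Snora17, Snora43, Scarna2 and Scarna17, though Snora43 overlaps a listed line of Snhg7. The position bears on the values, because reads that overlapped several listed exons had been split between them, also between strands. Of the 48, 30 share bases with a listed exon of another gene and 18 do not. Among the 18 the median log2 fold change of HuR against IgG was -0.96, against -0.94 over all 48, and without IgG 1 it was 0.16 and 0.21.

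The library sizes behind the values ran from 26.3 to 26.9 M reads in HuR RIP and from 15.9 to 28.8 M reads in IgG RIP, where M is mega. Levels are given in RPKM, in which reads are divided by the length of the exons and the size of the library, so levels of genes of different length can be set side by side. Not all libraries were alike. In HuR 3, 45.9% of the reads in listed exons came from small nuclear RNA, against 4.57% to 12.5% in HuR 1, HuR 2, IgG 1 and IgG 3 and 1.51% in IgG 2. IgG 1 had the smallest library and the highest level of 43 of the 48 genes. The numbers 2 and 3 of the HuR libraries are uncertain. The names of the RPKM columns end in M for libraries 1 and 2 and in F for library 3 of both groups, which reads as sex, though the sample labels do not give it. Xist, the X-inactivation RNA of female cells, was at 10.2 RPKM in HuR 2 and at 0.463 RPKM in HuR 3, and between 0.0021 and 0.359 RPKM in the other RIP libraries. The summed level of 4 Y-linked genes (Ddx3y, Eif2s3y, Kdm5d and Uty) was 0.041 RPKM in HuR 2 and 3.52 RPKM in HuR 3, and 2.28, 1.21, 0.34 and 0 RPKM in HuR 1, IgG 1, IgG 2 and IgG 3. These values go against the letters of HuR 2 and HuR 3, and the authors' fold columns also exchange these 2 libraries. HuR 2 and HuR 3 are used here as names of the RPKM columns, and an exchange would swap their values but leave every comparison of HuR with IgG as it is, apart from the replicate block. The tissue was checked with 5 hepatocyte markers, whose summed level was 711 to 825 RPKM in HuR RIP, 259 to 671 in IgG RIP and 686 in the Input mean. What part depth or these differences play in the results was not tested.

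Relative to all reads of a library, most of the 48 were higher in both pull-downs than in the lysate. The median RPKM of the 48 was 238 in HuR 1, 175 in HuR 2 and 81.9 in HuR 3. It was 957 in IgG 1, 156 in IgG 2 and 66.7 in IgG 3, against 10.4 in the Input mean. The 3 values of each group overlapped with those of the other. All 3 HuR libraries were above the Input mean for 45 of the 48, where 68.9% of all 5510 tested genes were. All 3 IgG libraries were above it for 43 of the 48, where 20.7% of tested genes were. For 41 of the 48 all 6 libraries were above it, against 15.3% of tested genes. After centring each library and the Input mean at its median, the counts were 39 for HuR RIP (21.7% of tested genes) and 43 for IgG RIP (19.3%). As deposited, the exceptions in HuR RIP were Snora73a, Scarna9 and Snora43, and in IgG RIP Scarna10, Scarna13, Scarna3a, Snora23 and Snora43. RIP libraries hold a selected part of the lysate's RNA, and in bulk tissue fewer cells of a type and less RNA per cell cannot be told apart.

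**Figure D1:**
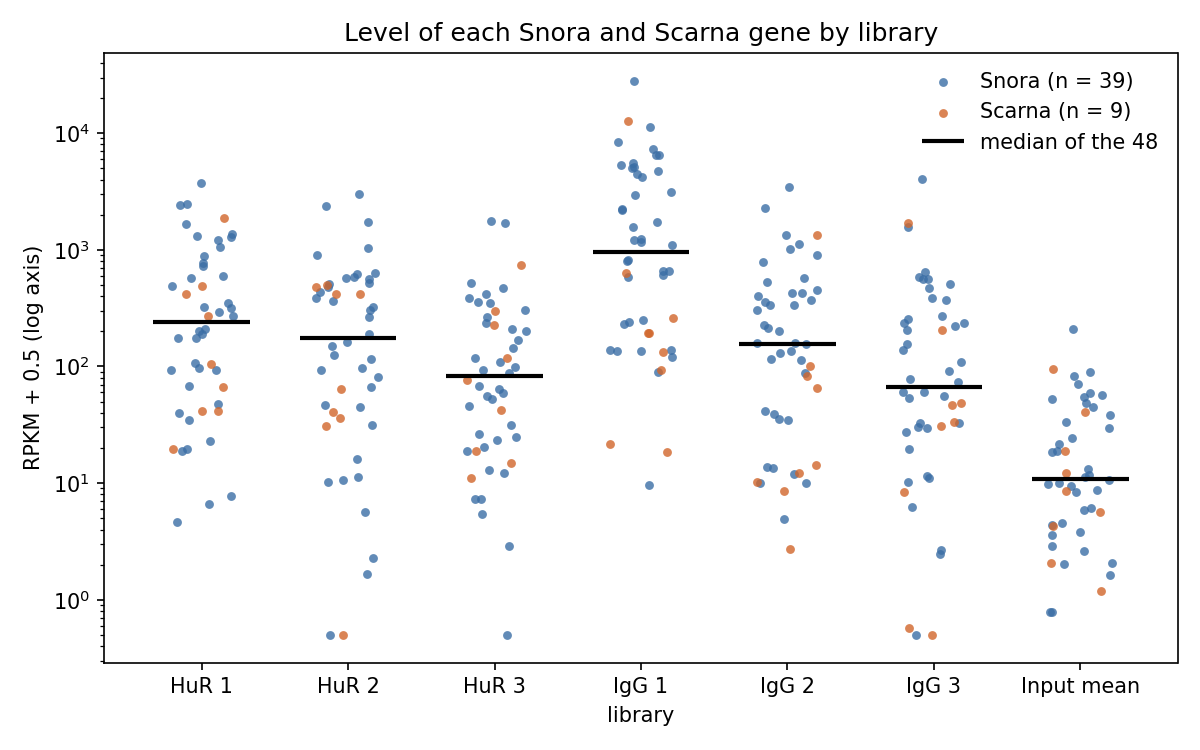
Level of each of the 39 Snora genes (blue) and 9 Scarna genes (orange) in each library, as RPKM + 0.5 on a log axis; points are genes, spread sideways for legibility, and black bars are the median of the 48. The median is 957 RPKM in IgG 1 and 66.7 to 238 RPKM in the other RIP libraries, against 10.4 in the Input mean.

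By log2 ratio to the Input mean, the median Snora gene stood at 4.27, 3.48 and 2.59 in HuR 1, 2 and 3 and at 6.57, 3.76 and 3.0 in IgG 1, 2 and 3. The median Scarna gene stood at 4.29, 3.49 and 3.23 in HuR RIP and at 3.95, 1.11 and 0.83 in IgG RIP. The C/D small nucleolar RNAs (78 tested of 94 genes named Snord) stood at 2.46, 0.85 and 1.68 with HuR and at 5.92, 2.56 and 2.76 with IgG. The median over all tested genes was 1.38, 1.31 and 1.08 with HuR and 0.91, -0.08 and -0.18 with IgG. The Snora median thus lay above that of Snord in every RIP library, with HuR and with IgG. The Scarna median lay above that of Snord in each HuR library. In each IgG library it lay below those of Snord and Snora. Both sets of ratios share the Input mean, and no test was made of these orders.

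**Figure D2:**
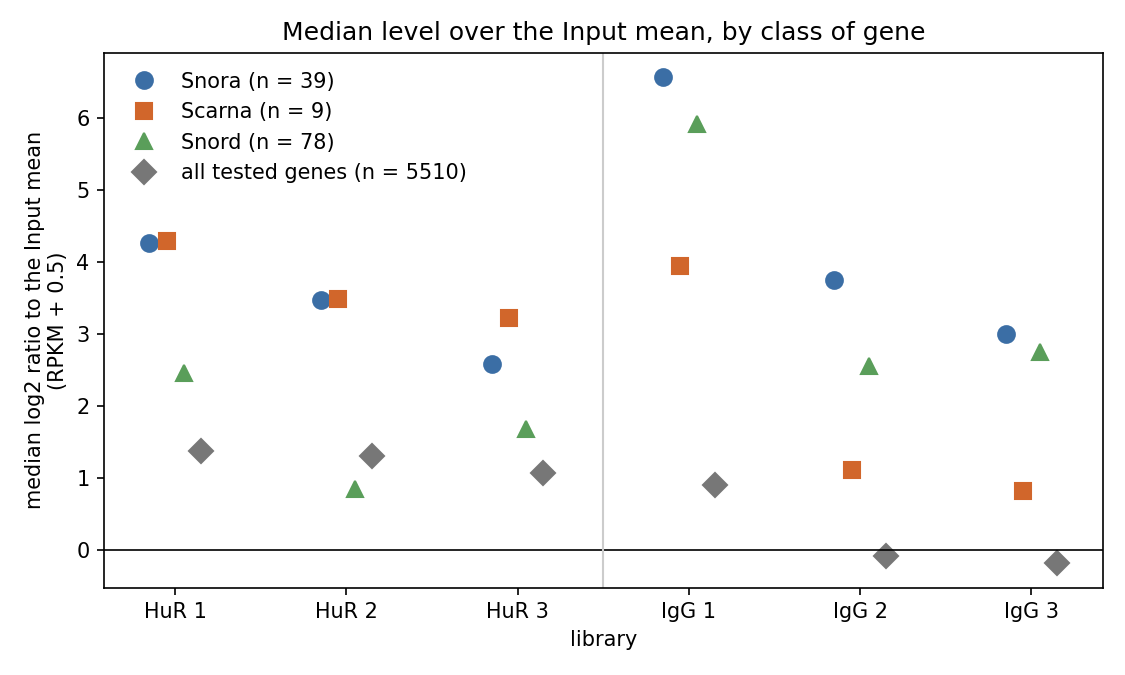
Median log2 ratio to the Input mean (RPKM + 0.5) in each RIP library for 39 Snora, 9 Scarna, 78 Snord and all 5510 tested genes; each symbol is the median of a class in a library. Snora and Scarna lie close together in HuR 1 and HuR 2, while with IgG the Scarna median (0.83 to 3.95) lies below the Snora median (3.0 to 6.57) in each library.

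The order of the genes within the family was alike in all libraries. Across the 48 genes Spearman's rho of log2 levels was between 0.74 and 0.95 over the 15 pairs of RIP libraries. The mean log2 level of HuR RIP against the Input mean had a rho of 0.90, and that of IgG RIP against the Input mean 0.89. These are correlations across genes, which share libraries and are not independent replicates. Snora57 was the most abundant in HuR 1, in all 3 IgG libraries and in the Input mean. In the order of libraries 1, 2 and 3, which holds for all values below, its level was 3766, 2353 and 1697 RPKM with HuR and 28162, 3483 and 4022 RPKM with IgG, against 209 RPKM in the Input mean. IgG 1 was the highest of these and the groups overlapped. The log2 fold change of HuR against IgG was -1.57 (SE 1.11, limma adjusted p = 0.314).

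Snora68 was the most abundant in HuR 2 and HuR 3. It was at 2408, 3004 and 1774 RPKM in HuR RIP and at 11325, 2275 and 506 RPKM in IgG RIP, against 58.6 RPKM in the Input mean. The HuR values lay between the extremes of IgG, and the log2 fold change was -0.01 (SE 1.16), and 1.13 without IgG 1. Scarna17, a Cajal body RNA with C/D ends, was second in IgG 1, IgG 3 and the Input mean. It was at 1859, 420 and 746 RPKM with HuR and at 12631, 1342 and 1686 RPKM with IgG, against 94.4 RPKM in the Input mean. The groups overlapped, since HuR 1 was above IgG 2 and IgG 3, and the log2 fold change was -1.87 (SE 1.15, limma adjusted p = 0.253).

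The other genes among the 12 most abundant were Snora21, Snora44, Snora16a, Snora65, Snora69, Snora3, Snora64, Snora47 and Snora31. Apart from Snora64, described below, their mean levels ran from 526 RPKM (Snora3) to 1252 RPKM (Snora65) in HuR RIP and from 1870 RPKM (Snora47) to 3457 RPKM (Snora21) in IgG RIP. In each of these 8 IgG 1 was the highest library and the groups overlapped. Their log2 fold changes ran from -1.03 for Snora3 to 0.29 for Snora65, with SE from 1.15 to 1.28. Without IgG 1 those of Snora21, Snora44, Snora16a, Snora69, Snora3, Snora47 and Snora31 were between 0.07 and 0.48, on the other side of 0. Snora65, inside the ribosomal protein gene Rpl12, was at 2447, 894 and 416 RPKM with HuR and at 5007, 427 and 234 RPKM with IgG, against 28.9 RPKM in the Input mean.

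The comparison of HuR RIP with IgG RIP asks what the HuR antibody held over the carry-over of a control antibody. limma was run on log2(RPKM + 0.5) over 5510 genes, which had at least 0.5 RPKM in 3 or more of the 6 RIP libraries, and all 48 genes passed that filter. A gene can pass it through the 3 HuR libraries alone, which bears on the shares of tested genes given as higher. With the limma adjusted p held under 0.05, 0 of the 48 were called higher with HuR and 0 lower, where 0.672% of all tested genes were called higher and 0.127% lower. By the unadjusted p, 2 of the 48 (Scarna13 and Scarna10) were under 0.05 on the higher side, as were 27.9% of tested genes, and 5 (Snora73a, Snora64, Snora73b, Snora24 and Snora75) on the lower side, as were 3.19%. The HuR values lay wholly above the IgG values in 2 of the 48, Scarna6 and Scarna13 (31.3% of tested genes), and wholly below in the same 5 (3.48%). The smallest adjusted p among the 48 was 0.0737, for Snora73a. Of the 18 alternative fits, 4 called 1 to 5 of the 48 higher and 3 called 1 to 3 of them lower, and each such gene is given below. On the higher side, scaling to listed reads outside the ribosomal repeat called 1 of the 48 and 146 of all 5510 genes. Sample quality weights called 5 and 2296, the fit without HuR 2 called 1 and 90, and that without IgG 1 called 4 and 724. On the lower side that scaling called 2 and 54, the weights 3 and 84, and the fit without IgG 3 called 1 and 35.

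The family lay below the bulk of the RNAs on this scale. The median log2 fold change was -0.94 over the 48, against 0.92 over all tested genes. Of the 48, 10 were above 0 and 6 above the median of all tested genes. That median depends on the filter, which genes can pass through HuR alone. With no filter (28263 genes) the median of all genes was 0.09, and that of the 48 was -0.94. Without IgG 1 the median of the 48 was 0.21 and that of all genes 1.24, so the sign of the family's median rests on that library, while it stayed below the median of all genes in each of the 18 alternative fits. Under the other scalings the median of all genes moved to -0.18 (centred libraries), 0.90 (listed reads) and 0.05 (quantiles), and that of the 48 to -2.04, -1.11 and -0.42. The Snora genes had a median of -0.98, with 4 of 39 above 0, and of 0.16 without IgG 1. The Scarna genes had a median of 1.53, with 6 of 9 above 0 and 5 above the median of all genes, and it was above 0 in every alternative fit (0.42 with centred libraries, its lowest). The 78 Snord genes tested had a median of -2.24, with 0 above 0. These are descriptions of the named sets, and no test of one set against another was made.

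**Figure D3:**
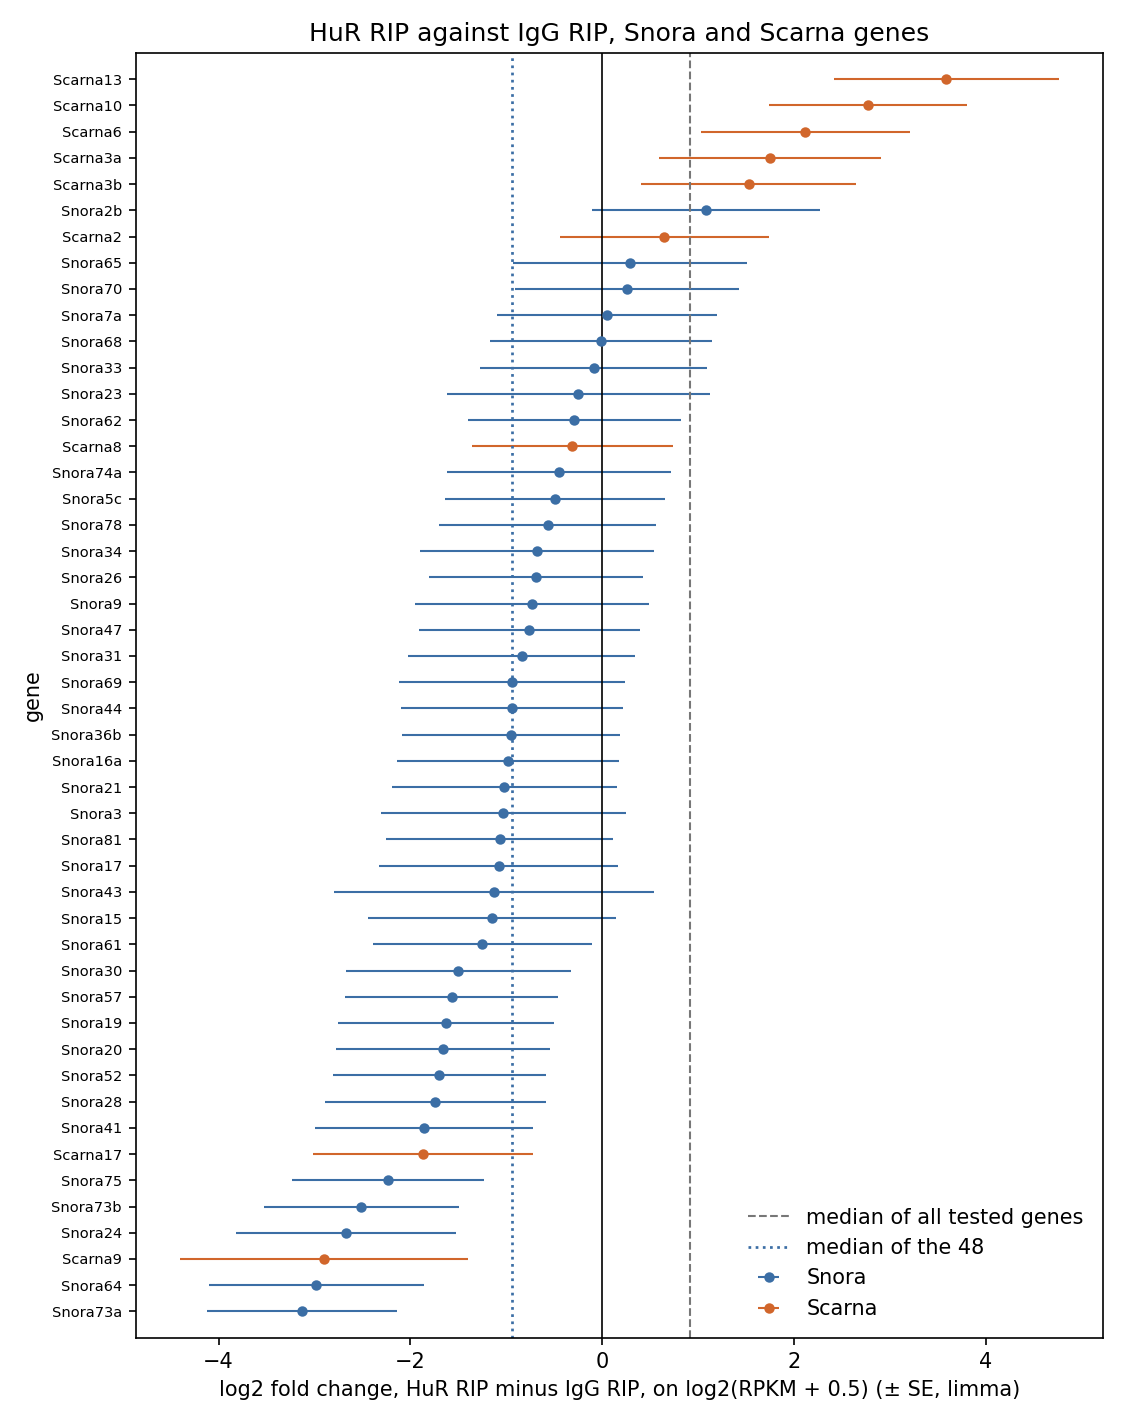
log2 fold change of HuR RIP against IgG RIP on log2(RPKM + 0.5) for each of the 48 genes, ordered by value; points are limma estimates from 3 against 3 libraries and bars are ± SE. Snora genes (blue) have a median of -0.98 and Scarna genes (orange) of 1.53, and the dashed line is the median of all tested genes, 0.92.

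The 5 highest values all belonged to Scarna genes. Scarna13, a tandem of H/ACA domains in an intron of the non-coding gene Snhg10, was at 104, 36 and 41.7 RPKM with HuR and at 21.1, 8.05 and 0 RPKM with IgG, against 3.79 RPKM in the Input mean. All 3 HuR values lay above all 3 IgG values. At 0 in IgG 3, a level of up to 0.378 RPKM (3 reads) is allowed for by counting error. Its log2 fold change was 3.59 (SE 1.17), with a limma adjusted p of 0.0799. It passed the threshold in 4 of the 18 alternative fits: with scaling to listed reads outside the ribosomal repeat (3.56, adjusted p = 0.0187), with sample quality weights (3.21, adjusted p = 0.0181), with HuR 2 left out (3.88, adjusted p = 0.0466) and with IgG 1 left out (4.72, adjusted p = 0.0444). Scarna13 shares bases with the listed line of the microRNA gene Mir3069, so part of its reads was counted there.

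Scarna10, which joins a C/D and an H/ACA part, was at 19.3, 30.2 and 14.4 RPKM with HuR and at 17.9, 2.23 and 0.0715 RPKM with IgG, against 1.56 RPKM in the Input mean. Only IgG 1 reached the range of HuR, and the level in IgG 3 came from 0.7 reads. Its log2 fold change was 2.77 (SE 1.03, limma adjusted p = 0.099), and the call was made without IgG 1 (4.06, adjusted p = 0.0427) and with sample quality weights (3.02, adjusted p = 0.0086). It lies in an exon of some transcript of Ncapd2, a condensin gene, and shares reads with it. Ncapd2 itself stood at 1.70 (SE 0.77, adjusted p = 0.14).

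Scarna6, of the same mixed kind and in an intron of the autophagy gene Atg16l1, shares no bases with another listed line. It was at 492, 479 and 225 RPKM with HuR and at 194, 99.8 and 33 RPKM with IgG, against 18.3 RPKM in the Input mean. The groups did not overlap. limma gave a log2 fold change of 2.12 (SE 1.09, limma adjusted p = 0.181), and it passed the threshold only with sample quality weights (1.97, adjusted p = 0.0497).

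Scarna3a and Scarna3b, in introns of Cop1 and Dcaf5, are copies with 85.7% of aligned positions identical, and both overlap a microRNA line (Mir1843b and Mir1843a). Scarna3a was at 419, 495 and 298 RPKM with HuR and at 631, 81.7 and 30.6 RPKM with IgG, against 40.4 RPKM in the Input mean. Scarna3b was at 66.7, 63.6 and 75.6 RPKM with HuR and at 132, 11.8 and 7.9 RPKM with IgG, against 5.2 RPKM in the Input mean. In both, IgG 1 was above every HuR library and IgG 2 and IgG 3 were below every HuR library. The log2 fold changes were 1.75 (SE 1.16) and 1.53 (SE 1.12), and 2.97 and 2.76 without IgG 1 (limma adjusted p = 0.0444 for both). With sample quality weights Scarna3a was at 2.23 (adjusted p = 0.0357) and Scarna3b at 2.38 (adjusted p = 0.0246). Reads of such copies can be assigned to either, so the values of the pair are uncertain.

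The other Scarna genes did not share that order. Scarna2, a C/D guide of U2 small nuclear RNA, was at 272, 421 and 117 RPKM with HuR and at 259, 65.1 and 205 RPKM with IgG, against 8.06 RPKM in the Input mean. The groups overlapped (log2 fold change 0.65, SE 1.09). Scarna8, an H/ACA guide of U2 small nuclear RNA, was at 41, 40.6 and 18.4 RPKM with HuR and at 92.4, 13.7 and 45.8 RPKM with IgG, against 11.7 RPKM in the Input mean. The limma estimate was -0.31 (SE 1.05), and 0.31 without IgG 1. Scarna9 was at 40.8, 0 and 10.6 RPKM with HuR and at 194, 9.65 and 48.1 RPKM with IgG, against 0.688 RPKM in the Input mean. With 3 reads as the limit, 0 in HuR 2 allows up to 1.63 RPKM. The groups overlapped, and the log2 fold change was -2.90 (SE 1.5, limma adjusted p = 0.199). It passed the threshold with scaling to listed reads outside the ribosomal repeat (-3.26, adjusted p = 0.0396). Leaving out 1 library gave from -4.28 (without HuR 1) to -1.09 (without HuR 2, where it was listed at 0). With sample quality weights Scarna9 was at -1.07.

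The lowest values belonged to Snora73a, Snora64, Scarna9, Snora24, Snora73b and Snora75. Snora73a and its copy Snora73b, 96.6% identical, belong to the H/ACA RNAs known for a role in processing the ribosomal precursor. Snora73a was at 4.18, 1.79 and 6.86 RPKM with HuR and at 134, 34.3 and 10.9 RPKM with IgG, against 3.85 RPKM in the Input mean. All HuR values were below all IgG values and near the Input mean, at a mean log2 ratio of -0.02 to it. The log2 fold change was -3.13 (SE 0.99, limma adjusted p = 0.0737). It passed the threshold with scaling to listed reads outside the ribosomal repeat (-3.34, adjusted p = 0.0279), with sample quality weights (-2.73, adjusted p = 0.0113) and without IgG 3 (-3.99, adjusted p = 0.0323).

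Snora73b was at 22.6, 10.7 and 6.8 RPKM with HuR and at 138, 41.2 and 60.4 RPKM with IgG, against 4.03 RPKM in the Input mean. Its groups did not overlap either (log2 fold change -2.51, SE 1.02, limma adjusted p = 0.112), and it was called with sample quality weights (-2.05, adjusted p = 0.0378). Reads of the pair can be assigned to either copy, and both share reads with listed lines of Gm17300, so the split between them is uncertain. The host Rcc1 stayed at or below 0.206 RPKM in all 6 RIP libraries.

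Snora64 was at 320, 583 and 88.1 RPKM with HuR and at 4707, 1114 and 1560 RPKM with IgG, against 81.8 RPKM in the Input mean. Every IgG library was above every HuR library. The log2 fold change was -2.98 (SE 1.12, limma adjusted p = 0.0984), with a call under sample quality weights (-2.61, adjusted p = 0.0219). Snora64 overlaps an exon of the ribosomal protein gene Rps2, and Rps2 stood at -2.92 (SE 1.11, adjusted p = 0.0993). The levels of both hold reads that were split between them. Snora78, which lies next to it on the opposite strand in an intron of Snhg9 and shares no listed line, had -0.57 (SE 1.13), which became 0.07 without IgG 1 and 0.34 without HuR 3.

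Snora24, in the non-coding gene Snhg8, was at 176, 92.6 and 59 RPKM with HuR and at 2923, 336 and 257 RPKM with IgG, against 10.1 RPKM in the Input mean. Its groups did not overlap (log2 fold change -2.67, SE 1.15, limma adjusted p = 0.123). Snora75, in the gene of the nucleolar protein nucleolin (Ncl), was at 6.07, 5.14 and 4.89 RPKM with HuR and at 138, 13.1 and 10.5 RPKM with IgG, against 1.57 RPKM in the Input mean. Its HuR values were close together and below every IgG value (log2 fold change -2.23, SE 1.0, adjusted p = 0.135). Ncl had -0.10 (SE 0.77). Among Snora genes the highest value was that of Snora2b, in the gene Kansl2, at 46.9, 30.8 and 22.8 RPKM with HuR and 136, 9.58 and 2.15 RPKM with IgG, against 0.29 RPKM in the Input mean. The log2 fold change of Snora2b was 1.08 (SE 1.19), while that of Snora34, also in Kansl2, was -0.68 (SE 1.22). That of Snora2b was -0.02 with centred libraries, and that of Snora34 was 0.71 without IgG 1 and 0.11 without HuR 3.

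In the authors' deposited table, the p-value of HuR against IgG was under 0.05 for 2 of the 48, Snora73b (0.0239) and Snora64 (0.0457). The lowest q-value among the 48 in the authors' deposited table was 0.541.

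Ratios within a library do not depend on its scaling and were used to describe the make-up of the family. The 48 took 0.876%, 0.989% and 0.235% of the reads in listed exons in HuR 1, 2 and 3 and 3.52%, 0.588% and 0.425% in IgG 1, 2 and 3, against 0.0392% in the Input mean. The groups overlapped. Reads in the 48 over reads in Snord genes gave 1.70, 2.64 and 1.23 with HuR and 0.849, 1.05 and 0.727 with IgG, against 0.508 in the Input mean. All HuR values lay above all IgG values (1.86 ± 0.719 and 0.876 ± 0.164, SD, n = 3 each). The groups stayed apart over genes that share no bases with another listed line (0.705 to 1.70 and 0.565 to 0.704) and without Snora57 (1.01 to 2.31 and 0.505 to 0.844). As a ratio of median levels, they overlapped (4.74 to 16.9 and 1.88 to 5.14). Snord genes took 0.515%, 0.374% and 0.191% of the reads in listed exons with HuR. With IgG they took 4.15%, 0.559% and 0.585%, all above the HuR values. The share of the 48 overlapped, so the ratio describes Snord reads as much as the 48. Since the genes were chosen with results known, these sums have no p.

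The shares of single genes among the reads of the 48 were looked at after the levels had been seen. The Scarna genes took 13.2%, 15.9% and 16.8% of these reads in HuR 1, 2 and 3 and 6.84%, 6.82% and 12.4% in IgG 1, 2 and 3, against 14.1% in the Input mean. Every HuR library was above every IgG library, and the Input mean lay within the HuR range. Without Scarna17 the shares were 9.73% to 14.8% with HuR and 1.68% to 5.98% with IgG. Without Scarna2 and Scarna6 they were 5.55% to 9.95% and 4.87% to 7.99%, and overlapped. Snora57 took 14.7%, 12.6% and 17.7% of the reads with HuR and 21.9%, 19.8% and 30.6% with IgG, against 17.3% in the Input mean. Over Snora reads alone these groups overlapped, since HuR 3 at 21.3% was above IgG 2 at 21.2%.

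**Figure D4:**
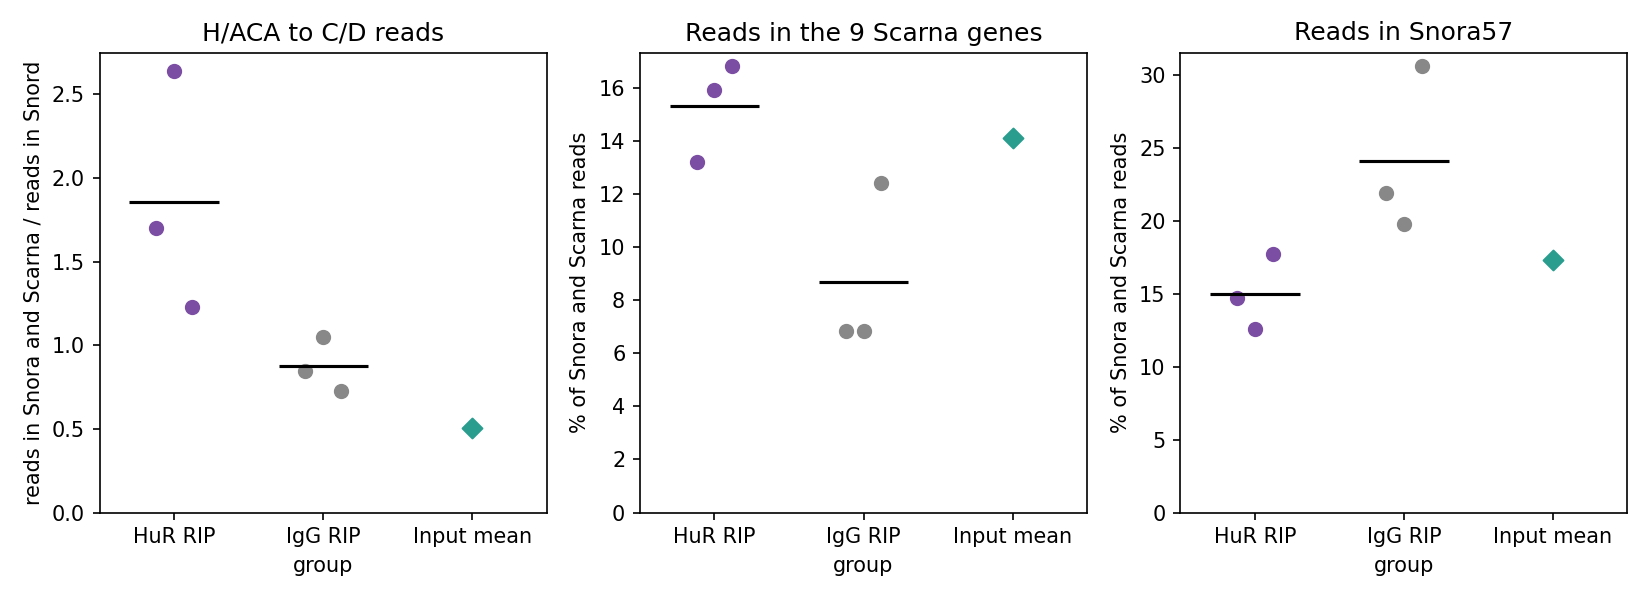
Left, reads in the 48 Snora and Scarna genes over reads in Snord genes; middle, percent of the reads of the 48 that lie in the 9 Scarna genes; right, percent that lie in Snora57. Points are libraries (3 HuR RIP, 3 IgG RIP), bars are group means and the diamond is the Input mean; HuR lies above IgG in the left and middle panels (1.23 to 2.64 against 0.727 to 1.05, and 13.2% to 16.8% against 6.82% to 12.4%) and below in the last.

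By its share of the reads of the 48, HuR lay wholly above IgG in 7 genes, Scarna3a, Scarna3b, Scarna6, Scarna10, Scarna13, Snora2b and Snora65. It lay wholly below in 7, Snora24, Snora28, Snora57, Snora64, Snora73a, Snora73b and Snora75. Over all tested genes, levels divided in the same way by the reads of the 48 lay wholly above in 49.9% and wholly below in 1.89%. Scarna6 took 4.08% ± 0.587 of the reads of the 48 with HuR and 0.578% ± 0.388 with IgG (SD, n = 3 each). Scarna3a took 2.33% ± 0.714 and 0.375% ± 0.134, and Scarna13 took 0.642% ± 0.247 and 0.0385% ± 0.043. Snora24 took 0.527% ± 0.0854 with HuR and 1.80% ± 0.176 with IgG, a gap wider than the spread in either group. Snora65 took 5.48% ± 2.54 and 2.37% ± 0.953.

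Grouping the 48 by what their names do not use gave the following, as descriptions made after the values had been seen. The 5 with C/D ends had a median log2 fold change of 0.65 (from -2.90 to 2.77), and the 4 Scarna genes with an ACA tail had 1.64 (from -0.31 to 3.59). The median of the 5 was 0.05 without IgG 2 and -0.45 with centred libraries. The 6 genes over 200 bases (Scarna2, Scarna6, Scarna10, Scarna13, Snora73a and Snora73b) had values from -3.13 to 3.59, with 4 above 0. Across all 48, length and log2 fold change had a Spearman's rho of 0.39, and across the 39 Snora genes of 0.06. The 11 genes assigned to ribosomal protein hosts had a median of -0.29 and the 8 assigned to long non-coding hosts of -0.83. Both signs rest on IgG 1, without which the medians were 0.58 and 0.17.

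Few of these RNAs held a motif that HuR is known to bind, and the share was near that of other listed exons. Searched on the strand of the gene, UUUUUUU was found in 1 of the 48 (Snora23), UUUAUUU in 0, AUUUA in 4 (Snora15, Snora33, Snora36b and Snora41) and UAUUUAU in 0. In listed exons of 70 to 414 bases the shares were 1.52%, 1.45%, 7.84% and 0.815%. UAUUUAU contains AUUUA, so their counts are not separate. Any of these patterns was present in 5 of the 48 (10.4%), against 9.49% of those exons. The median U content was 26.7% in the 48 and 21.6% in the exons. None of the 5 Scarna genes with the highest values held a match. Snora23, with the run of U, had a log2 fold change of -0.25 (SE 1.37), and its direction changed with single libraries. It was 1.18 without IgG 1, 0.31 without HuR 3 and 0.18 without IgG 2.

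For 8 small RNAs that share no bases with another listed line, the host was tested too. Hosts that did not pass the filter were left out, and a host can pass it through the HuR libraries alone. In these 8 pairs, 6 hosts had a log2 fold change above 0, as did 79.1% of all tested genes, and 0 of the 8 small RNAs did. Without IgG 1 all 8 hosts and 5 of the 8 small RNAs were above 0 (83.9% of tested genes). With centred libraries 2 hosts and 0 small RNAs were (41.8%). The small RNA lay below its host in 6 of the 8 pairs, and in 6 without IgG 1. With all 6 libraries Tpt1, which encodes the translationally controlled tumor protein, was at 1.60 (SE 0.77) and Snora31 in its intron at -0.84 (SE 1.18). Ipo7, an importin gene, was at 1.16 (SE 0.49) and Snora23 at -0.25. The ribosomal protein gene Rpl23 was at 0.97 (SE 0.79) and Snora21 at -1.02 (SE 1.17). Eef1b2, an elongation factor gene, was at 0.62 (SE 0.69) and Snora41 at -1.86 (SE 1.14). The exceptions were Snhg12, whose lines share reads with Snora44 and Snora61 (-1.02, with Snora16a at -0.98), and Rpsa (-0.65, with Snora62 at -0.29). Without IgG 1, Snora31 was at 0.39, Snora23 at 1.18, Snora21 at 0.07, Snora16a at 0.16 and Snora62 at 0.58. Some of the hosts were low. Ipo7 was at 0.612 to 1.03 RPKM with HuR and at 0 to 0.162 RPKM with IgG. It passed the filter by its HuR values alone, so a value above 0 was fixed by the filter. Eef1b2 was at 0.895 to 1.79 RPKM with HuR and at 0.0678 to 1.3 RPKM with IgG. At such levels the added 0.5 RPKM makes a fold change smaller. None of these hosts or small RNAs passed the adjusted threshold with all 6 libraries, and the difference between host and small RNA was not tested.

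Messenger RNAs of the proteins that work with H/ACA RNAs were low in all libraries. Of 10 genes of the particle and its assembly, 1 passed the filter and 0 were called. That gene was Nop10, a core protein, at 0.982, 0 and 0.777 RPKM with HuR and 0.198, 0.51 and 0 RPKM with IgG, against 0.136 RPKM in the Input mean (log2 fold change 0.47, SE 0.52). Dkc1, the pseudouridine synthase of the particle, was at 0.233, 0.0891 and 0.355 RPKM with HuR and 0.0429, 0.0626 and 0.035 RPKM with IgG, and was not tested. Its HuR values lay wholly above its IgG values, as did those of 31.3% of tested genes. All values of Dkc1 were under the 0.5 RPKM of the filter, so that share is not one of genes at its level. Gar1 was at 0.127 to 0.294 RPKM with HuR and listed at 0 in all 3 IgG libraries and the Input mean. Nhp2 ranged from 0 to 1.38 RPKM with HuR and from 0 to 0.0361 RPKM with IgG. Of the assembly genes in the list, Ruvbl1, Ruvbl2, Shq1 and Rpap3 had a lower mean with HuR than with IgG. Naf1 and Pih1d1 had a higher mean with HuR.

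Terc, the telomerase RNA, ends in an H/ACA domain and binds the same proteins. It was at 15.5, 7.72 and 2.72 RPKM with HuR and at 5.67, 1.15 and 9.76 RPKM with IgG, against 1.17 RPKM in the Input mean. Like most of the 48 it was above the Input mean in HuR RIP, and its groups overlapped (log2 fold change 0.67, SE 0.90, limma adjusted p = 0.587). Of 11 Cajal body and nucleolar partner genes listed, 2 were tested and 0 called, and of 12 other pseudouridine synthase genes 0 passed the filter. The small nuclear RNA genes that Scarna RNAs act on were 9 tested and 0 called, with a median log2 fold change of 0.86, from -1.14 to 1.56. Elavl1 was at 0.95, 0.304 and 0.99 RPKM with HuR and at 0.523, 0.0253 and 0.0134 RPKM with IgG, against 0.095 RPKM in the Input mean (log2 fold change 0.88, SE 0.51, adjusted p = 0.228).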

How the data were processed

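RIP-seq was done on livers of mice at 8 weeks. Per the submitters' processing notes, the tools were Bowtie2 and featureCounts and the genome was mm10. Not given in the sources used here: tool versions, counting settings, and the test behind the p-value and q-value columns that the authors deposited. The file, as deposited, holds RPKM per exon for 6 RIP libraries, the mean RPKM of Input and log2 fold columns. The decimal mark was missing from every number of at least 1. It was put back where the number then gave the fold columns that the authors deposited (to within 5e-06). All 49 lines of the genes described here fitted in all 6 folds. The fold columns exchange HuR 2 and HuR 3 relative to the RPKM columns, whose names were followed.

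Gene RPKM was the sum of RPKM times length over a gene's lines, divided by its merged length. Library sizes came from the fixed step between values. The Input depth is unknown. Genes had to reach 0.5 RPKM in 3 of 6 libraries, and limma 3.58.1 (R 4.3.3; trend and robust) compared HuR with IgG, two-sided, with Benjamini-Hochberg adjustment over 5510 genes. No count model was used, since the files hold RPKM with reads split between exons. The labels do not say whether a HuR and an IgG library used the same liver. p-values measure the spread between 3 libraries a group, which may be in part technical, and read counts cover counting error only. On simulated data, the pipeline was tested before use. For the fit, those data had a smaller spread than the genes described here and no differences between libraries. That test therefore does not show the power or the rate of false calls here. The 18 alternative fits changed filter, pseudocount, scaling, moderation, weights, block or libraries. Positions and sequences came from GENCODE M21. The remaining work was done in Python 3.11.15 with Biopython 1.88, matplotlib 3.10.9, pandas 2.3.3, scipy 1.17.1 and numpy 2.4.6.

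The genes, lists and tests were chosen with earlier results of these data known. Genes named were the 12 highest by level, the 6 largest and 6 smallest fold changes, every Scarna gene, core H/ACA proteins, Terc, Elavl1 and hosts, beside genes given as examples of a group after their values were seen.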

Additional observations from a re-analysis of the deposited data

How the results depend on the processing

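Counts of calls moved with the processing, and medians of the family moved with IgG 1. Against 37 genes higher and 7 lower over all genes and 0 and 0 of the 48, the counts of higher and lower genes were 0 and 0 with no filter, 145 and 21 with a filter at 1 RPKM, 3 and 1 with a pseudocount of 1, 1 and 18 with centred libraries, 146 and 54 (of the 48, 1 and 2) with scaling to listed reads outside the ribosomal repeat, 5 and 4 with quantile normalization, 0 and 0 with no trend, 2296 and 84 (of the 48, 5 and 3) with sample quality weights, and 0 and 0 without HuR 3 and IgG 1 together. A pseudocount of 0.1 gave 37 and 5. Leaving out 1 library gave 0 to 724 higher and 0 to 35 lower over all genes, and 0 to 4 higher and 0 to 1 lower among the 48. The 724 came without IgG 1, and 0 and 0 without IgG 2. With the replicate number as a block there were 0 and 0 over all genes and 0 and 0 of the 48, and also with HuR 2 and HuR 3 exchanged in the block, an alternative chosen after seeing the data. To look for pairing, the mean of its group was first taken off each gene's log2 level. What was left correlated at 0.14, 0.12 and 0.09 between same-numbered HuR and IgG libraries over 5510 genes. These are not correlations of levels, and taking off the mean makes values of both signs bound to appear. Each library correlated best with its own number in this way, so the numbers are at most a hint of pairing. As the columns are named, the summed level of Y-linked genes was unlike between same-numbered libraries 2 and 3. It was 0.041 RPKM in HuR 2 and 0.34 in IgG 2, and 3.52 in HuR 3 and 0 in IgG 3. The unadjusted counts were 1539 higher and 176 lower without the block and 1665 and 238 with it.

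Leaving out 1 library gave a median log2 fold change from -1.62 to 0.21 for the 48 and from -1.88 to 0.16 for Snora, from 0.74 to 1.24 for all genes, and without HuR 3 and IgG 1 together 0.67 for the 48 and 0.61 for Snora. The median of all genes was -0.18 with centred libraries and 0.09 with no filter. The median of the 48 minus that of all genes, -1.86, ranged from -2.41 to -0.47. Of the 48 genes, 26 changed sign without HuR 3 and IgG 1 together, 22 without IgG 1, 7 with sample quality weights, 5 with centred libraries and 3 with quantile normalization. For the genes named by the rule the changed values were as follows. Without HuR 3 and IgG 1 together the log2 fold change was 0.69 for Scarna8, 0.43 for Snora16a, 0.77 for Snora21, 1.35 for Snora3, 0.66 for Snora31, 0.50 for Snora44, 0.84 for Snora47, 1.33 for Snora68 and 0.87 for Snora69. With sample quality weights it was 0.59 for Scarna8, 0.03 for Snora31 and 0.17 for Snora68. With centred libraries it was -0.45 for Scarna2, -0.02 for Snora2b and -0.81 for Snora65, and with quantile normalization 0.66 for Snora68. Leaving out 1 library gave -1.04 to 0.31 for Scarna8, -1.59 to 0.16 for Snora16a, -1.87 to 0.07 for Snora21, -0.19 to 2.65 for Snora2b, -1.92 to 0.48 for Snora3, -1.51 to 0.39 for Snora31, -1.67 to 0.18 for Snora44, -1.57 to 0.15 for Snora47, -0.59 to 1.61 for Snora65, -1.12 to 1.13 for Snora68 and -1.60 to 0.21 for Snora69. Of the genes given as examples, Snora23 was at 1.74, Snora34 at 1.49, Snora62 at 0.70 and Snora78 at 0.97 without HuR 3 and IgG 1 together. Snora34 was at 0.05 and Snora62 at 0.75 with sample quality weights, and Snora23 at 0.35 with quantile normalization. Leaving out 1 library gave -2.12 to 1.18 for Snora23, -1.47 to 0.71 for Snora34, -1.13 to 0.58 for Snora62 and -1.15 to 0.34 for Snora78. The causes were not tested.

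The mean share of listed reads in the 48 with HuR was 0.70%, and 1.24% outside the ribosomal repeat. The mean ratio to Snord reads, 1.86 with HuR and 0.876 with IgG, was 9.7 and 3.28 from median levels. With IgG it was 0.619 over genes that share no bases with other lines and 0.671 without Snora57. The mean Scarna share, 15.3% with HuR and 8.69% with IgG, was 12.6% and 3.51% without Scarna17 and 7.59% with HuR without Scarna2 and Scarna6. The mean Snora57 share with HuR was 15%, and 17.7% over Snora reads. The alternatives that leave out named genes were chosen after seeing the data. With 3 libraries a group and 18.8 reads a library for the lowest gene of the 48, single fold changes had SE of 0.99 or more.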
